A study of Homo sapiens with 6 samples.

Results

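The genes described here build ribosomes in the nucleolus: RNA polymerase I with its initiation factors, and the factors that process, modify and assemble ribosomal RNA. They were taken as a list of 52 gene symbols, and every probe set that the platform annotation assigned to 1 of these symbols alone was used. Another 10 probe sets, shared between a member and other genes, were left out of the counts and calls of members. Of the 52 genes, 50 had at least 1 probe set assigned to that gene alone, 127 probe sets in all, among 18239 genes and 45253 such probe sets on the arrays; EBNA1BP2 and GNL3 were not analysed here. The 50 comprised 11 genes of RNA polymerase I, 15 of small subunit processing, 11 of large subunit processing, 8 of small nucleolar ribonucleoproteins (snoRNPs) and 5 with several nucleolar roles.

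RNA was taken from MV4;11 cells, an established human leukemia line with a rearranged MLL gene (KMT2A), that had spent 6 days with 4 µM MI-389, a compound the labels call an inhibitor of menin binding to MLL, or with the solvent alone (DMSO). Both groups held 0.25% DMSO, and on day 3 fresh medium and fresh compound or solvent were given. Each group had 3 Affymetrix arrays of a labelling that starts at the 3-prime ends of transcripts. The labels call them biological replicates of 1 cell line without saying how the cultures were kept apart, so the p-values reflect only how far these samples differ among themselves, and that spread may be technical. The comparison asks how transcripts of the ribosome factory differ in MLL leukemia cells kept with the inhibitor.

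RNA polymerase I transcribes the ribosomal DNA repeats into a long precursor. In the nucleolus, snoRNPs guide methylation and pseudouridylation of this precursor, the small subunit processome cuts out the RNA of the small subunit, and a separate set of factors matures the RNAs of the large subunit. Growing cells run this pathway at high output, and MYC is a known activator of many of its genes.

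Array values are log2 units as deposited, and a difference is the MI-389 mean less the DMSO mean, given with its standard error (SE) in the limma fit. A gene was called changed at a Benjamini-Hochberg adjusted p under 0.05 over all 18239 genes, and "rose" and "fell" refer to such calls. The 6 arrays had medians from 4.47 to 4.49. Control probe sets of nonspecific sequence reached 5.49, leaving aside the one richest in GC, and values under 5.49 are called dim here. The GC-richest of these controls were higher on every MI-389 array than on every DMSO array, at 7.77 with MI-389 and 7.45 with DMSO for the richest and 5.43 and 5.19 for the next, differences of 0.32 and 0.24. Of the 5 measured myeloid markers 4 were above that level in both groups. SPI1 was dim in both (3.99 with MI-389 and 4.66 with DMSO) and was called lower (adjusted p = 0.0119). The other 4 moved with the groups: LYZ was 13.13 with MI-389 and 11.07 with DMSO, CSF2RA 7.46 and 6.90, PTPRC 9.23 and 8.89, and FLT3 9.59 and 11.01. Of these 4, 3 rose and FLT3 fell. Of the 6 measured genes listed as markers of other cell types, 5 were dim, and of these COL1A1 was called lower (adjusted p = 0.0356). PECAM1 was at 9.99 with MI-389 and 9.55 with DMSO, and rose (adjusted p = 0.00021). The hybridisation spike-ins were 9.36, 9.27 and 9.26 on the MI-389 arrays and 8.99, 9.08 and 9.07 on the DMSO arrays, and the 3-prime minus 5-prime difference of the ACTB control was 1.64 with MI-389 and 1.30 with DMSO. Their part in the results was not tested.

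Transcripts of the ribosome factory were mostly lower with MI-389. Of the 50 measured members 30 fell, 6 rose and 14 were not called, so 60% fell and 12% rose, against 15.7% of all genes falling and 18.4% rising. Among the 8668 genes with a mean above the dim level, 27.4% fell and 30.4% rose, and of the 47 members above it 28 fell and 6 rose. The median difference over the 50 members was -0.23, beside 0.02 over all genes. All MI-389 arrays lay below all DMSO arrays in 34 members and above them in 8, against 20.5% and 24.9% of all genes. Of the 8668 genes above the dim level, 2897 lay wholly below and 3184 wholly above. Of the 47 such members, 32 lay below and 8 above. In bulk RNA, fewer cells of a type and less RNA per cell cannot be told apart.

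The changes were modest in size: tested against a fold of 1.2 instead of against 0, 8 members were called lower and 0 higher. Differences ran between -0.97 for RCL1 and 0.38 for TAF1B. The 7 genes that fell by 1.5-fold or more were RCL1, POLR1E, NOP14, POLR1D, PES1, RRP9 and TAF1A, against 4.74% of all genes, with TAF1A among them on its fitted value, which is dim with MI-389. Among genes with a mean above the dim level, 6 of 47 members and 728 of all 8668 genes fell that far. The members that rose were TAF1B, UTP3, NOP56, POLR1A, TAF1C and RRS1. On values centred by the spike-ins, which lowered the median of all genes to -0.23, 42 members were called lower, none was called higher, and POLR1A, TAF1C and RRS1 turned to differences below 0. The uncalled NCL, NHP2, NOLC1, PPAN, UTP20, FBL and RRP1B turned below 0 as well, while TAF1B, UTP3 and NOP56 stayed above 0. Leaving out single arrays gave 25 to 31 falling and 3 to 6 rising members, with 3 without DMSO replicate 1.

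**Figure D1:**
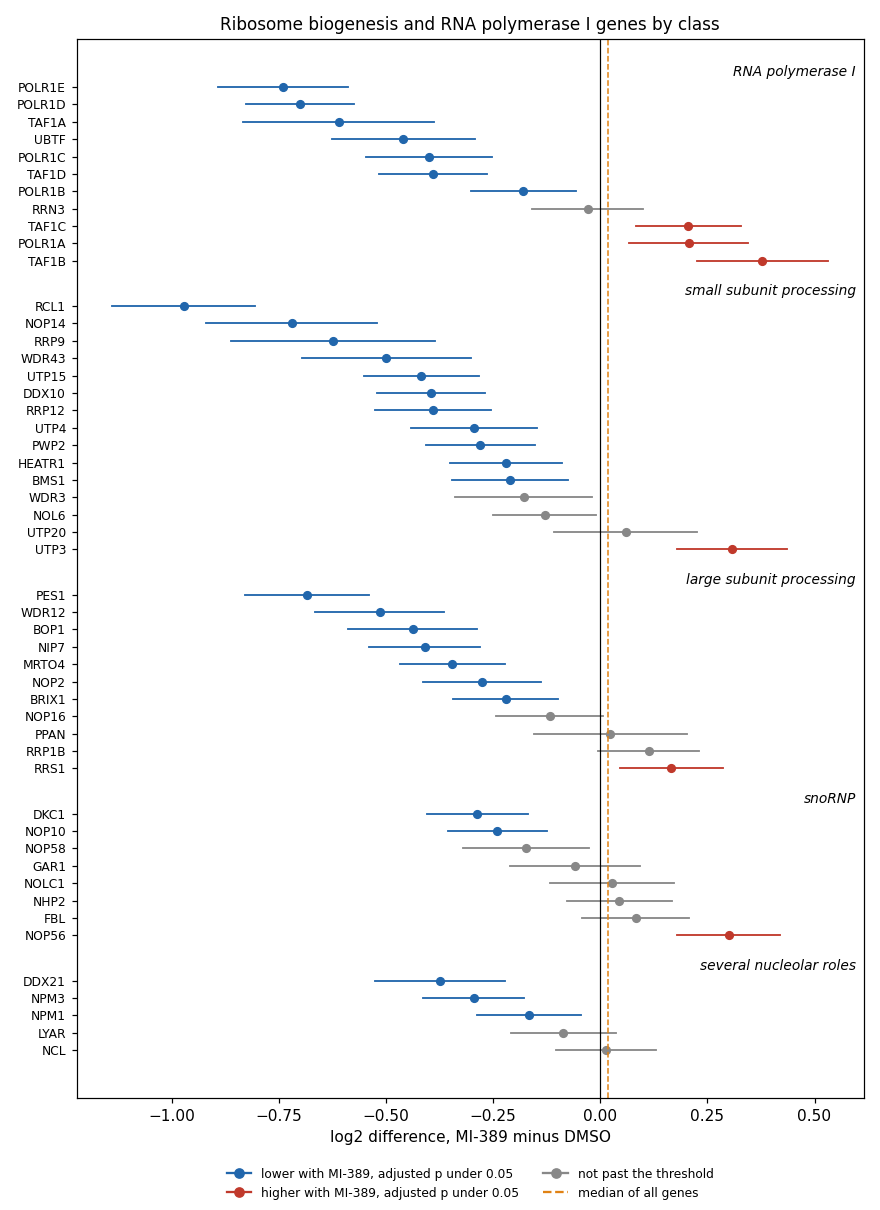
Difference in log2 value, MI-389 minus DMSO, for each of the 50 measured genes, grouped by class; points are the limma estimates, bars their 95% confidence intervals, and the dashed line the median of all genes at 0.02. Of the 50 points 30 are called lower and 6 higher, the lowest being RCL1 at -0.97 and the highest TAF1B at 0.38; on values centred by the spike-ins no gene is called higher, and POLR1A, TAF1C and RRS1 lie below 0.

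**Figure D2:**
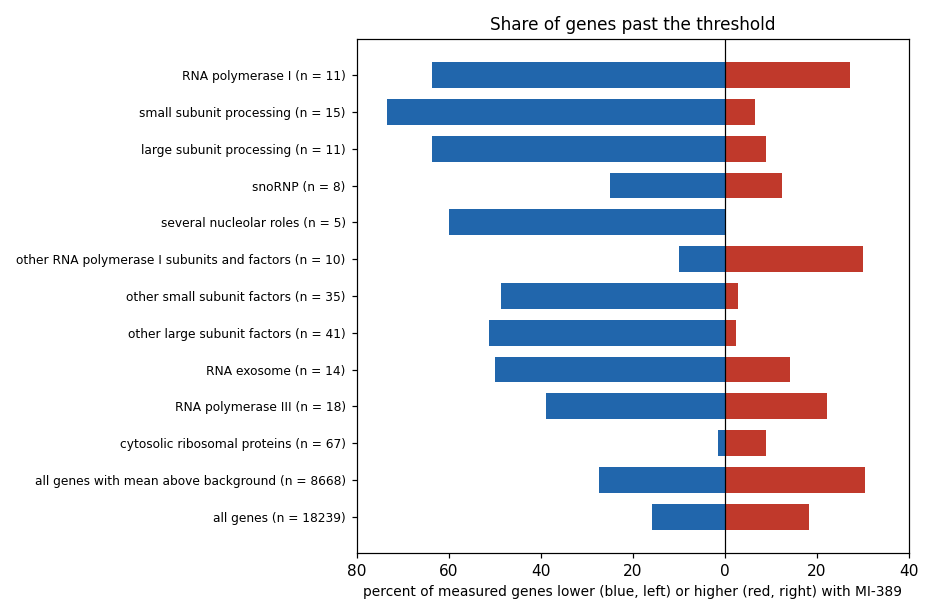
Percent of measured genes called higher and called lower with MI-389 against DMSO, for the 5 classes of members, other lists of ribosome and polymerase genes, and all genes. The classes stand with 7 of 11 polymerase I, 11 of 15 small subunit, 7 of 11 large subunit, 2 of 8 snoRNP and 3 of 5 several-role genes lower, all genes at 15.7% lower and 18.4% higher; on values centred by the spike-ins no member is called higher.

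Promoters were described because the letters CACGTG, an E-box that MYC with MAX and the USF factors are known to bind, recurred near the starts of these genes. Of the 50 measured members 43 had a promoter in the RefSeq table of GRCh38.p14, which gives 250 bases before to 50 after the start, and 16 of the 43 (37.2%) held CACGTG, a motif that reads the same on both strands. That compares with 10.9% of 14492 measured genes with a promoter and 13.6% of the 7320 above the dim level. By class the motif was in 8 of 14 small subunit genes, 3 of 8 large subunit genes, 3 of 6 snoRNP genes, 2 of 5 of those with several roles and 0 of 10 of the polymerase I class. By call it was in 11 of 27 members that fell, 0 of 5 that rose and 5 of 11 not called. Among members with the motif, the windows of the 6 with the largest falls and of 2 not called (FBL and GAR1) were printed. They do not represent all 16, and capitals mark CACGTG.
RCL1: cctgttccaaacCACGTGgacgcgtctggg
NOP14: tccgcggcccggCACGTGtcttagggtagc
PES1: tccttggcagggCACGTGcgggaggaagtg
RRP9: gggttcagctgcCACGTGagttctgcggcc
WDR43: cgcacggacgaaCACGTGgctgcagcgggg
DDX21: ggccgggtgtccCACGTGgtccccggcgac
FBL: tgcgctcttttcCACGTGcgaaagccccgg
GAR1: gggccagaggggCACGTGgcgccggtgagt
Each window is written 5′ to 3′ on the strand of its gene. RCL1 lies at chr9:4792936-4792965 (plus), NOP14 at chr4:2963374-2963403 (minus), PES1 at chr22:30591880-30591909 (minus) and RRP9 at chr3:51941892-51941921 (minus). WDR43 lies at chr2:28894658-28894687 (plus), DDX21 at chr10:68956604-68956633 (plus), FBL at chr19:39846356-39846385 (minus) and GAR1 at chr4:109815781-109815810 (plus). Counting the first transcribed base as position 1, the motif begins at 5 in RCL1, 16 in NOP14, 14 in PES1, 4 in WDR43, 7 in FBL and 32 in GAR1. It begins at -5 in RRP9, where it runs into the first transcribed base, and at -31 in DDX21. PWP2, whose window is not printed, had the match that began nearest to the start, at 2. The match farthest out in the members lay at -64 in LYAR, apart from a second one in NOP10 at -170. In 10 of the 16 members a match began after the start, and in 6 matches began before the start alone. A match is a description of letters and no evidence of binding.

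The polymerase I class had a median difference of -0.39 and held 3 of the 6 rises. Of its 11 genes 7 fell, 3 rose and RRN3 alone was not called. Among the subunits of the enzyme itself, POLR1B, POLR1C, POLR1D and POLR1E fell and POLR1A rose. POLR1E, a subunit that helps the enzyme engage the promoter, was 7.54, 7.76 and 7.65 on the MI-389 arrays and 8.41, 8.44 and 8.33 on the DMSO arrays, a difference of -0.74 ± 0.07 (SE, n = 3 each, adjusted p = 1.43e-05), or 1.67-fold lower. The groups were well apart, and all 3 probe sets of POLR1E were called lower. POLR1D, a subunit shared by polymerases I and III, was 9.34, 9.41 and 9.33 with MI-389 and 10.02, 10.06 and 10.12 with DMSO, which was 1.63-fold lower (-0.70 ± 0.06, adjusted p = 5.52e-06). Here too all 3 probe sets were lower. POLR1B, the second-largest subunit, fell by 0.18 (adjusted p = 0.0287), with 4 of 6 probe sets called lower. An uncalled POLR1B probe set was at 0.20 (adjusted p over all probe sets 0.0636). POLR1C, the partner of POLR1D in both enzymes, fell by 0.40 (adjusted p = 0.000875). POLR1A, the largest subunit, went the other way, with 7.08, 7.22 and 7.12 in MI-389 cells and 6.89, 6.91 and 7.01 in DMSO cells (0.21 ± 0.06, adjusted p = 0.0272). Its groups were separated by a narrow gap, and 1 of its 2 probe sets was called, the other being dim in both groups.

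The initiation factors were split. UBTF, which binds along the ribosomal DNA and keeps it open, was 6.99, 7.15 and 6.89 with MI-389 and 7.47, 7.53 and 7.41 with DMSO, or 1.38-fold lower (-0.46 ± 0.07, adjusted p = 0.000798), and all 4 of its probe sets were called lower. RRN3, which joins the polymerase to the promoter complex, was 6.52, 6.41 and 6.52 with MI-389 and 6.57, 6.50 and 6.48 with DMSO. Its groups overlapped, and the difference of -0.03 had a 95% interval from -0.16 to 0.10. A probe set annotated to RRN3 together with pseudogenes of it was lower by 0.44 (adjusted p over all probe sets 0.00209), and the gene and its copies cannot be told apart there. The 4 TAF1 proteins form the promoter selectivity factor SL1 with the TATA-binding protein, and 2 of them fell while 2 rose. TAF1A was 4.80, 4.96 and 5.21 with MI-389 and 5.71, 5.58 and 5.51 with DMSO (adjusted p = 0.000822). The MI-389 arrays were dim, so TAF1A is given as at least 1.08-fold lower. TAF1D fell by 0.39 (adjusted p = 0.000363). TAF1B, the SL1 subunit that resembles TFIIB, was 7.38, 7.37 and 7.49 with MI-389 and 6.96, 7.00 and 7.15 with DMSO, or 1.30-fold higher (0.38 ± 0.07, adjusted p = 0.00154), with 2 of 3 probe sets called. TAF1C was 6.66, 6.57 and 6.61 with MI-389 and 6.37, 6.42 and 6.43 with DMSO, a rise of 0.21 ± 0.05 (adjusted p = 0.0148) called in 1 of 4 probe sets. The other 3 were dim in both groups.

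Several of these calls rested on single arrays or on the choice of probe set. POLR1A lost its call without MI-389 replicate 2 or DMSO replicate 1 or 2 (adjusted p = 0.0923 to 0.0971). POLR1B lost its call without MI-389 replicate 2 or any 1 DMSO replicate (adjusted p = 0.0607 to 0.0929). TAF1C lost its call without MI-389 replicate 1 or DMSO replicate 1 (adjusted p = 0.0549 and 0.0591). Over the mean of all probe sets TAF1C was 0.04 and TAF1A -0.29, with 3 of 4 and 4 of 5 probe sets dim in both groups.

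Outside the members, 10 further genes of polymerase I, among them 5 subunits shared with other polymerases, the TATA-binding protein gene TBP and the termination factor gene TTF1, had 3 rises, 1 fall and a median of 0.06. POLR1H fell by 0.29 (adjusted p = 0.00953), while POLR1G, the partner of POLR1E in the enzyme, rose by 0.40 (adjusted p = 0.000944) and POLR2L, shared by all 3 nuclear polymerases, rose by 0.54 (adjusted p = 3.24e-05). Polymerase III makes the 5S RNA and tRNAs. The list of its subunits, its factors and its regulator MAF1 had 7 of 18 measured genes lower, MAF1 among them, and 4 higher. POLR3C fell by 0.64 (adjusted p = 1.39e-05) and POLR3GL rose by 0.53 (adjusted p = 0.000168). The shares were 10% lower and 30% higher for the further polymerase I genes and 38.9% lower and 22.2% higher for the polymerase III list. Both lists thus held calls in both directions. So did all genes with a mean above the dim level, of which 27.4% fell and 30.4% rose.

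**Figure D3:**
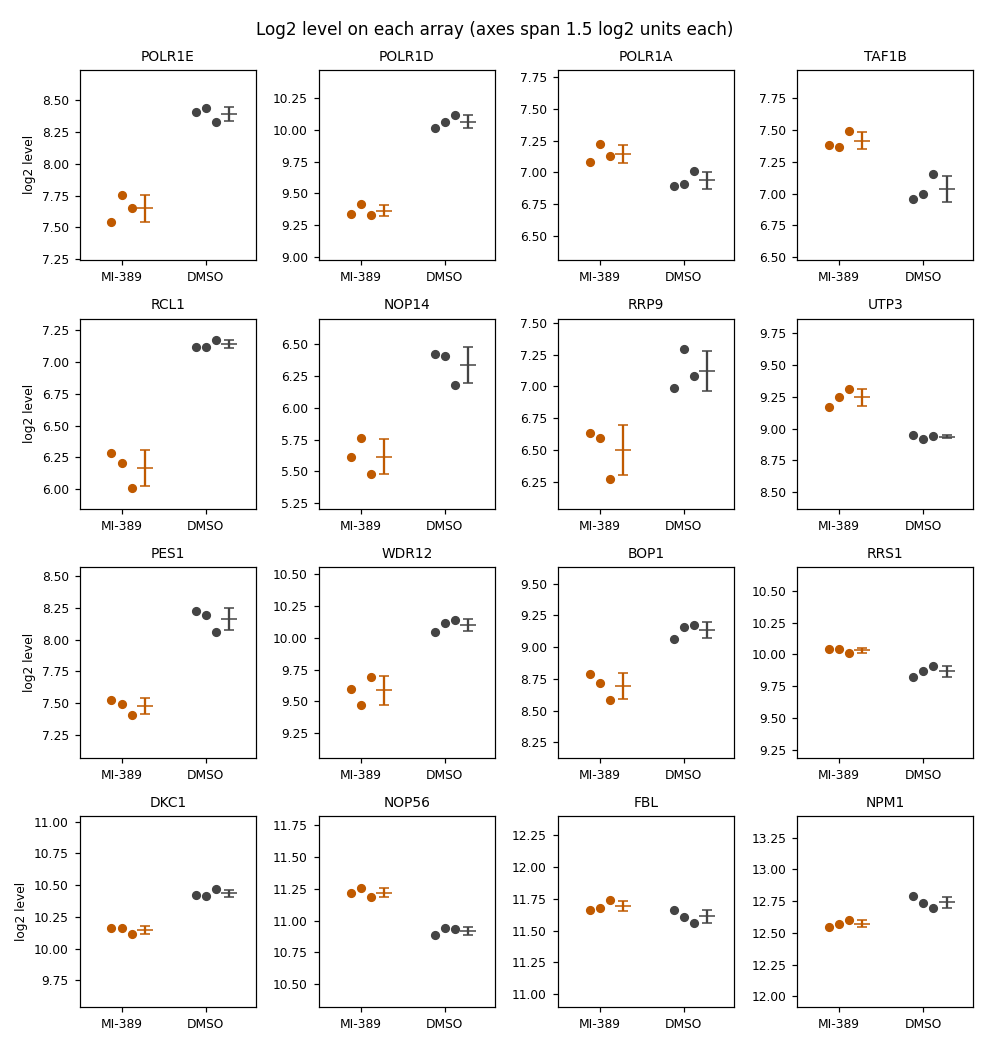
Log2 value on every array for 16 members, 4 to each of 4 rows of panels, with MI-389 left of DMSO; points are arrays, and lines give the mean and SD (n = 3 each). POLR1E, POLR1D, RCL1, NOP14, RRP9, PES1, WDR12, BOP1, DKC1 and NPM1 lie lower in all 3 MI-389 arrays, and POLR1A, TAF1B, UTP3, RRS1 and NOP56 lie higher. The FBL groups all but touch, at 11.67 for the lowest MI-389 array and 11.66 for the highest DMSO array. With spike-in centring the differences of POLR1A, RRS1 and FBL turn below 0.

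The small subunit processome, the particle that forms on the nascent precursor and releases the small subunit RNA, had 11 of 15 members lower, 1 higher and 3 not called, with a median of -0.30. RCL1, which in yeast takes part in a cut that separates the small subunit precursor, was 6.28, 6.21 and 6.01 with MI-389 and 7.12, 7.12 and 7.18 with DMSO. That was 1.96-fold lower (-0.97 ± 0.07, adjusted p = 3.89e-06), the largest fall of any member. NOP14, needed for maturation of the small subunit RNA, was 5.61, 5.76 and 5.48 with MI-389 and 6.43, 6.41 and 6.18 with DMSO, or 1.65-fold lower (-0.72 ± 0.09, adjusted p = 0.000124). The MI-389 arrays lay near the dim level, and 2 of 3 probe sets were called. RRP9, a protein of the U3 snoRNP, was 6.63, 6.59 and 6.27 with MI-389 and 6.99, 7.29 and 7.08 with DMSO, or 1.54-fold lower (-0.62 ± 0.11, adjusted p = 0.00108). Its SE was the largest among the members, and the groups did not overlap.

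A group of processome proteins binds early and links transcription to processing. WDR43 of this group fell by 0.50 (adjusted p = 0.00133), with both probe sets called, and UTP15 was called lower (adjusted p = 0.000342). UTP15 averaged 5.07 with MI-389 and 5.49 with DMSO, at or under the dim level, so no fold is given for it. UTP4 fell by 0.30 (adjusted p = 0.00544) and HEATR1 fell by 0.22 (adjusted p = 0.0146), HEATR1 in only 1 of 4 probe sets. BMS1, the GTPase that binds Rcl1 in yeast, fell by 0.21 (adjusted p = 0.0217), and PWP2 fell by 0.28 (adjusted p = 0.00312). The helicase DDX10 fell by 0.39 (adjusted p = 0.000333) and RRP12, an export factor of the small subunit, fell by 0.39 (adjusted p = 0.000591) with all 3 probe sets called. WDR3 (-0.18), NOL6 (-0.13) and UTP20 (0.06) were not called, and UTP20 was dim in both groups. UTP3, a conserved processome protein also called SAS10, was 9.17, 9.25 and 9.31 with MI-389 and 8.95, 8.92 and 8.94 with DMSO, or 1.24-fold higher (0.31 ± 0.06, adjusted p = 0.00184). Both of its probe sets were called higher.

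HEATR1 lost its call without DMSO replicate 2 (adjusted p = 0.0723) and was -0.08 over the mean of all its probe sets. NOP14 moved to -0.44 over the mean of all its own. Of the probe sets in these means, 2 of 4 for HEATR1 and 2 of 3 for NOP14 were dim in both groups. BMS1 lost its call without MI-389 replicate 1 or 2 or DMSO replicate 1 or 2 (adjusted p = 0.0502 to 0.0863). Among 35 further small subunit factors, 17 fell and 1 rose, with a median of -0.14. NOB1, the nuclease that makes the last cut at the 3-prime end of the small subunit RNA, was 9.44 with MI-389 and 10.35 with DMSO (-0.91 ± 0.06, adjusted p = 9.06e-07).

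Large subunit processing had 7 of 11 measured members lower, 1 higher and 3 not called, with a median of -0.28. PES1, BOP1 and WDR12, which form the PeBoW complex needed for the large subunit RNAs, all fell, with a median of -0.52. PES1 was 7.53, 7.50 and 7.41 with MI-389 and 8.23, 8.20 and 8.06 with DMSO, or 1.61-fold lower (-0.69 ± 0.06, adjusted p = 1.85e-05). WDR12 was 9.60, 9.47 and 9.69 with MI-389 and 10.05, 10.12 and 10.14 with DMSO, or 1.43-fold lower (-0.52 ± 0.07, adjusted p = 0.000188). BOP1 was 8.78, 8.72 and 8.58 with MI-389 and 9.06, 9.16 and 9.17 with DMSO, or 1.36-fold lower (-0.44 ± 0.07, adjusted p = 0.000565). In all 3 genes the groups were separate.

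NIP7 fell by 0.41 (adjusted p = 0.000323) and MRTO4, a placeholder for the stalk protein P0, fell by 0.35 (adjusted p = 0.000645), each in both probe sets. NOP2, a methyltransferase of the large subunit RNA, fell by 0.28 (adjusted p = 0.00552) in all 3 probe sets, and the assembly factor BRIX1 fell by 0.22 (adjusted p = 0.0102) with 4 of 4 probe sets called. NOP16 (-0.12), PPAN (0.02) and RRP1B (0.11) were not called. RRS1, which brings the 5S RNA particle into the large subunit, was 10.05, 10.04 and 10.01 with MI-389 and 9.82, 9.87 and 9.91 with DMSO, a rise of 0.17 ± 0.05 (adjusted p = 0.0368). This small rise lost its call without MI-389 replicate 1 or 2 or DMSO replicate 1 or 2 (adjusted p = 0.0822 to 0.126). In the fit over all probe sets, the only RRS1 probe set was not called (adjusted p = 0.0524). BRIX1 lost its call without DMSO replicate 2 (adjusted p = 0.0525). When probe sets whose suffix marks shared or unspecific sequence (_x_at, _s_at, _a_at) were used last, WDR12 was -0.20 (adjusted p = 0.0573). The WDR12 probe set used there was dim in both groups (4.88 with MI-389 and 5.07 with DMSO). The 2 WDR12 probe sets called lower, at -0.60 and -0.52, were above the dim level.

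Of 41 further large subunit factors that were measured, 21 fell and 1 rose, with a median of -0.20. RSL24D1 was 10.91 with MI-389 and 11.89 with DMSO (-0.98 ± 0.07, adjusted p = 3.43e-06), and WDR74 fell by 0.85 (adjusted p = 1.1e-05). LSG1, a GTPase of late large subunit maturation, was the one that rose, by 0.40 (adjusted p = 0.00267). The RNA exosome trims precursor ends. Listed with its cofactors and the separate nuclease XRN2, it had 7 of 14 measured genes lower and 2 higher. The largest fall in that list was EXOSC4, at 8.46 with MI-389 and 9.46 with DMSO (adjusted p = 6.56e-07). Of 67 measured genes for cytosolic ribosomal proteins, the finished parts of the ribosome, 1 fell, 6 rose and 60 were not called, with a median of 0.04. RPL35A was the gene that fell, by 0.32 (adjusted p = 0.00154), and RPL27A, one of the 6, was dim in both groups. Many of these genes lay near the top of the arrays, up to 13.42 for RPS28 with MI-389, and whether such probe sets could still show a difference was not tested.

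The snoRNP class had 1 rise, 2 falls and 5 genes not called among 8, with a median of -0.02. Thus 25% fell and 12.5% rose, beside 27.4% and 30.4% of all genes with a mean above the dim level. Both falls were among the 4 proteins of box H/ACA particles, which carry out pseudouridylation, and the particle types were not tested against each other. DKC1, their catalytic subunit, was 10.16, 10.17 and 10.11 with MI-389 and 10.42, 10.41 and 10.47 with DMSO, or 1.22-fold lower (-0.29 ± 0.05, adjusted p = 0.00173), in 1 of its 2 probe sets. NOP10 was 9.81, 9.83 and 9.85 with MI-389 and 10.06, 10.05 and 10.11 with DMSO, or 1.18-fold lower (-0.24 ± 0.05, adjusted p = 0.00474). NHP2 and GAR1, the other two proteins of the same particle, had overlapping groups and differences of 0.04 and -0.06.

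Of the box C/D proteins in this class, whose particles carry out ribose methylation, 1 of 3 rose and none was called lower, with NOP58 near the threshold. FBL, their methyltransferase fibrillarin, was 11.67, 11.68 and 11.74 with MI-389 and 11.66, 11.61 and 11.56 with DMSO, a difference of 0.08 with a 95% interval from -0.04 to 0.21 (adjusted p = 0.311). NOP56, a scaffold of the particle, was 11.21, 11.26 and 11.19 with MI-389 and 10.88, 10.94 and 10.94 with DMSO, or 1.23-fold higher (0.30 ± 0.05, adjusted p = 0.00143). All 4 NOP56 probe sets were called higher. NOP58, the paralogue that pairs with NOP56, was at -0.17 and not called (adjusted p = 0.0705), though 1 of its 2 probe sets was lower by 0.34 (adjusted p over all probe sets 0.00176). It was called lower with a common median, further quantile normalisation, dim genes left out, a trended and robust variance, the mean of all its probe sets or the spike-ins, and without MI-389 replicate 3 (adjusted p = 0.000492 to 0.0462). NOLC1, a chaperone of snoRNPs, was at 0.03.

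Among the abundant nucleolar proteins with several roles, 3 of 5 fell and none rose, with a median of -0.17. DDX21, a helicase that works with polymerase I and snoRNAs, was 10.94, 10.97 and 11.16 with MI-389 and 11.43, 11.39 and 11.37 with DMSO, or 1.30-fold lower (-0.37 ± 0.07, adjusted p = 0.00157), in all 3 probe sets. NPM3 was 8.59, 8.64 and 8.57 with MI-389 and 8.88, 8.89 and 8.92 with DMSO, or 1.23-fold lower (-0.30 ± 0.05, adjusted p = 0.00146). NCL, nucleolin, was 11.90, 11.96 and 11.91 with MI-389 and 11.91, 11.91 and 11.91 with DMSO. Its difference of 0.01 had a 95% interval from -0.10 to 0.13, and it turned to -0.24 on values centred by the spike-ins. LYAR, a nucleolar growth regulator, was at -0.09 and not called (adjusted p = 0.275).

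NPM1, nucleophosmin, a nucleolar chaperone often mutated in acute myeloid leukemia, was 12.55, 12.57 and 12.60 with MI-389 and 12.79, 12.73 and 12.70 with DMSO, or 1.12-fold lower (-0.17 ± 0.05, adjusted p = 0.0375). The call lost significance without MI-389 replicate 1 or 2 or any 1 DMSO replicate (adjusted p = 0.0519 to 0.131). In the fit over all probe sets, only 3 of its 6 probe sets were called lower. The probe set that stands for NPM1 was not called there (-0.17, adjusted p = 0.0532), and neither was another at -0.14 (adjusted p = 0.103). The one without an unspecific suffix was at 0.05 (adjusted p over all probe sets 0.551). NPM1 has many processed pseudogenes, so its probe sets are uncertain.

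Probe sets of 1 gene moved the same way where they were called. Of the 127 member probe sets 62 were lower, 12 higher and 53 not called, against 14% of all probe sets lower and 14% higher. Of all 18185 probe sets with a mean above the dim level, 5236 were lower and 4795 higher. Of the 25 called genes with more than 1 probe set, 12 had every probe set called in the gene's direction, and 0 of the 36 genes with more than 1 had probe sets called in both directions.

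**Figure D4:**
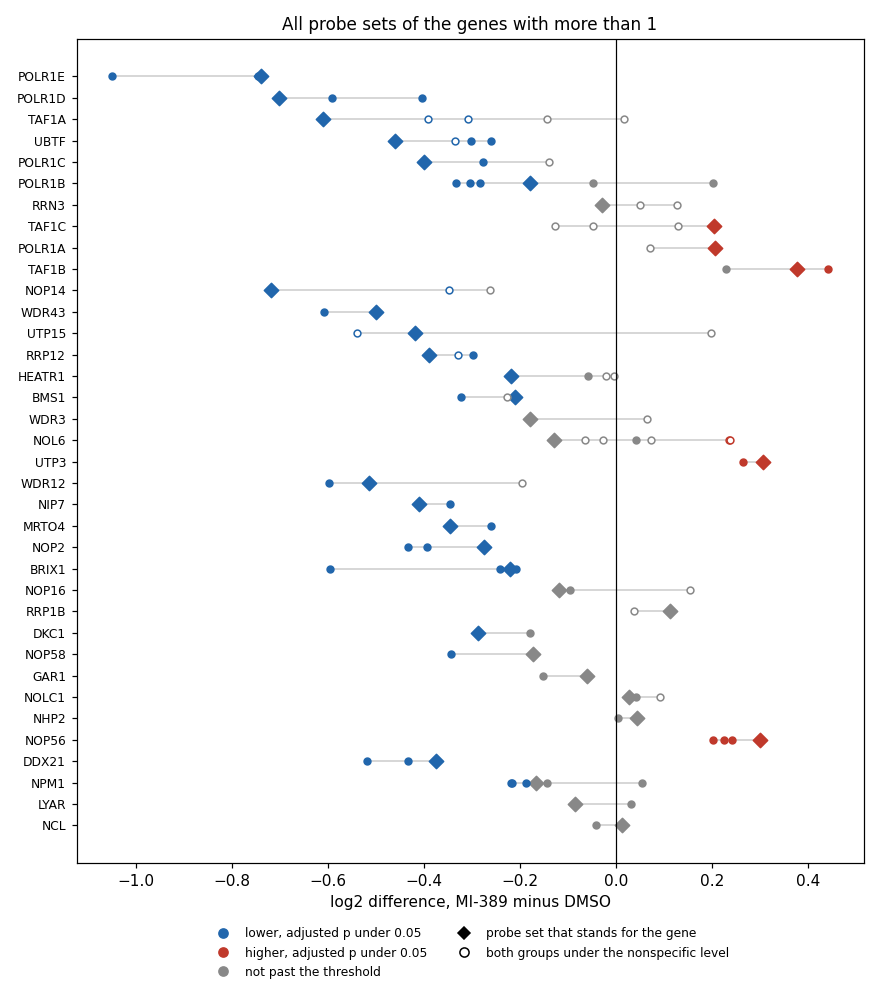
Difference in log2 value, MI-389 minus DMSO, of every probe set of the 36 members with more than 1, coloured by call over all probe sets. No gene has probe sets called in both directions; POLR1E, POLR1D, UBTF, DDX21 and BRIX1 have all of theirs lower and NOP56 all 4 higher, where spike-in centring leaves NOP56 at 0.05 and not called.

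TAF1D carries small nucleolar RNAs in its introns, and 5 probe sets were annotated to both TAF1D and 1 of these RNAs. The only probe set of TAF1D alone gave the fall of 0.39, with means of 8.40 for MI-389 and 8.79 for DMSO. Of the 5 shared ones 4 were called higher. The SNORA25 probe set was at 6.46 with MI-389 and 5.63 with DMSO, higher by 0.83 (adjusted p over all probe sets 4e-05). The one shared with SNORA18 was higher by 0.67 (4.06e-05), with SNORA32 by 0.60 (0.00037) and with SNORA8 by 0.26 (0.00707), while the one shared with SNORA40 was not called (0.23, adjusted p = 0.133). The shared probe sets and that of TAF1D alone thus differed in sign. The annotation does not say which RNA such a probe set measures.

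**Figure D5:**
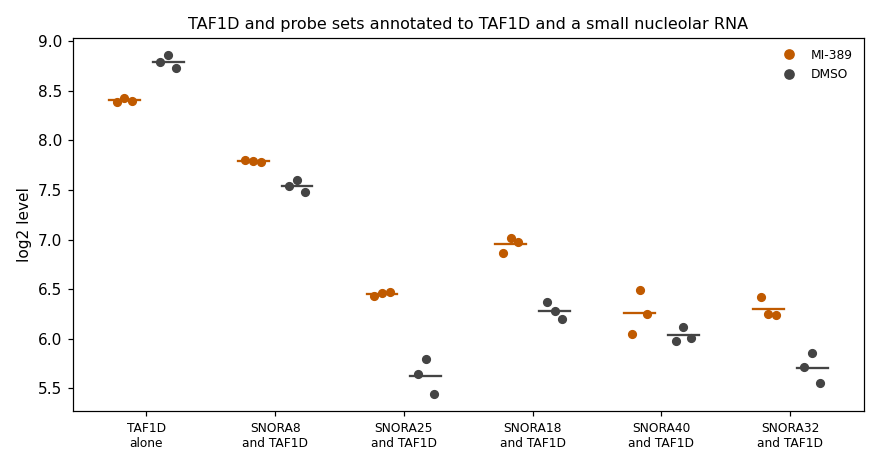
Log2 value on each array for the probe set that represents TAF1D and for the 5 probe sets shared by TAF1D and a small nucleolar RNA, MI-389 left of DMSO; points are arrays (n = 3 each). TAF1D lies lower with MI-389 and the SNORA8, SNORA18, SNORA25 and SNORA32 probe sets lie higher.

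Another 7 motifs were counted on both strands in the same promoters. The letters CCGGAAG, bound by ETS factors, were in 46.5% of the 43 members and in 16.9% of all measured genes with a promoter, or 25.7% of those above the dim level. CACGCG was in 37.2% of members against 18.7% and 23.8%, and GGAAGT in 53.5% against 30.3% and 36.4%. A match to GGAAGT can overlap one to the ETS letters. The SP1 letters GGGCGG were in 69.8% against 65.8% and 77.7%, and ATGGCG, found in YY1 sites, in 25.6% against 17.5% and 24.7%. TCTCGCGA was in 9.3% against 2.07% and 3.39%, and TGACGTCA, the site of CREB and ATF factors, in 2.33% against 3.07% and 3.99%. Against genes above the dim level, the E-box, the ETS letters, TCTCGCGA, CACGCG and GGAAGT were more frequent among the members, and these shares carry no test.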

How the data were processed

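MV4;11 cells after 6 days of MI-389 or DMSO were compared on 3 arrays each. The values are log2 units per probe set as deposited; the submitters' processing notes name RMA and limma but give neither versions nor settings. Arrays have no read depth, so the number of arrays limits the precision, and RMA compresses dim values.

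Of 49386 probe sets, 93 controls were left out of tests. Gene symbols came from the platform annotation, brought up to date by Entrez ID with the RefSeq table. For each gene, the probe set brightest on average over the 6 arrays stood for it. The fit used limma 3.58.1 in R 4.3.3 (lmFit, eBayes, two-sided, no covariates), and probe sets were also fitted one by one. The test was checked on simulated data. No set was tested, and classes were not tested against each other.

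The members, the lists and the alternatives were chosen with earlier results of these data known. Array values are printed for up to 3 higher and 3 lower genes per class with the largest differences and for NCL, NPM1, FBL, UBTF, RRN3 and POLR1A, and up to 2 genes each way are named per list. Alternatives were array scaling, the spike-ins, a filter on dim genes, the variance model, the replicate block, the choice of probe set, a minimum fold of 1.2 and leaving out each array.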

Additional observations from a re-analysis of the deposited data

Results flagged for a closer look

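The arrays carry control probe sets for ribosomal RNA, which no comparison above used, and 4 of the 6 were higher on every MI-389 array than on every DMSO array. The 28S 5-prime probe set was 12.81, 12.55 and 13.00 with MI-389 and 10.71, 10.41 and 10.94 with DMSO, a difference of 2.10. The 18S 3-prime probe set was 11.53, 10.99 and 11.58 with MI-389 and 9.68, 9.86 and 10.25 with DMSO, a difference of 1.44. The probe sets of the middle regions differed by 0.94 for 28S and 0.45 for 18S. The other two, 18S 5-prime at 0.21 and 28S 3-prime at 0.15, had overlapping groups. An exact two-sided permutation test gave p = 0.1 for each of the 4, the smallest that 3 against 3 arrays allow, and p = 0.2 for the other two. Ribosomal RNA has no poly(A) tail and the labelling starts from one, so these values are no measure of the amount of ribosomal RNA. The 3-prime minus 5-prime difference of the ACTB control was 1.64 with MI-389 and 1.30 with DMSO. The cause was not tested.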

How the results depend on the processing

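Centring on the spike-ins gave 42 falling and 0 rising members at a median of -0.48, and 11056 falling and 1397 rising genes in all. By class it left 0 rises each for polymerase I, small subunit and large subunit genes, and gave 6 falls and 0 rises for snoRNP genes and 5 falls for those with several roles. It turned NCL to -0.24 (adjusted p = 0.0136), POLR1A to -0.0462, RRS1 to -0.0869 and TAF1C to -0.0472. Likewise NHP2 turned to -0.21, NOLC1 to -0.23, PPAN to -0.23 and UTP20 to -0.19. FBL and RRP1B turned below 0 as well. Testing against a fold of 1.2 left 8 falling and 0 rising members, 1175 falling and 1282 rising genes in all, and 3, 3, 2, 0 and 0 falls with 0 rises in the polymerase I, small subunit, large subunit, snoRNP and several-roles classes. The large subunit rise was 0 with a common median and with the replicate block, 2 with a trended and robust variance, and 0 to 1 over single arrays left out. The polymerase I rises were 1 to 3 over arrays left out, 1 being without DMSO replicate 1. The member median was -0.25 with a common median, -0.25 over the mean of all probe sets and -0.25 to -0.22 over arrays left out. With unspecific suffixes last, NPM1 was 0.0543. Every other setting that kept all 6 arrays gave 27 to 32 falling and 4 to 7 rising members. Equal replicate numbers did not deviate together (correlations -0.18, 0.03 and -0.11), and a fit with the replicate block gave 28 falling and 4 rising members. Over arrays left out in turn, 25 members kept the call of a fall and 3 that of a rise, and 7 falls and 0 rises were called under every alternative run. The cause of these shifts was not tested.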

Other observations

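Probe sets annotated to small nucleolar or Cajal body RNAs were looked at after the values of the TAF1D probe sets were seen, and no test of them as a list was made. Of 115 such probe sets 20 were called higher with MI-389, 3 lower and 92 neither, with a median difference of 0.07. Among the 25 with a mean above the dim level, 13 were higher and 2 lower, and their median was 0.26. Without the 5 shared with TAF1D, 9 of 20 were higher and 2 lower, and the median was 0.15. Of all 18185 probe sets above that level, 4795 were higher and 5236 lower. The labelling starts from poly(A), so these values may be of host transcripts or of the small RNAs, which the annotation does not tell apart.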
